A study of Mus musculus with 32 samples.

Results

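A set of 10 genes of antigen presentation by MHC class II was followed through the stem and progenitor cells of young and aged mouse bone marrow. They were taken by symbol from the gene count table, as H2-Aa, H2-Ab1, H2-Eb1, Cd74, Ciita, H2-DMa, H2-DMb1, H2-DMb2, H2-Oa and H2-Ob, out of the 24421 genes it lists. Of the 10 members, 10 passed the filter on low counts that left 14154 genes for testing. RNA was sequenced from 8 fractions sorted by flow cytometry from the marrow of female C57BL/6 mice aged 10 weeks (Young) or 20 months (Aged), with no allele or treatment named for either age. Each of the 16 groups had 2 libraries, 32 in all. The fractions were hematopoietic stem cells (HSCs), the multipotent progenitors MPP1 to MPP4, and the restricted progenitors GMPs (granulocytes and macrophages), MEPs (megakaryocytes and erythrocytes) and CLPs (lymphoid cells). HSCs and MPPs were Lin-, Sca-1+ and c-kit+. HSCs were also CD150+ and lacked CD34, CD48 and Flt3. The MPPs were CD34+: MPP1 carried CD150 without CD48, MPP2 carried both, MPP3 carried CD48 without CD150, and MPP4 resembled MPP3 but was Flt3+. GMPs and MEPs were c-kit+ and lacked Sca-1, with FcgR and CD34 on GMPs and neither on MEPs. CLPs were Lin-, positive for IL-7R and low for Sca-1 and c-kit. The lineage antibodies included B220, which B cells and mouse plasmacytoid dendritic cells carry, but none against CD11c or class II itself.

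Class II molecules carry peptides from endosomes to the cell surface, where CD4 T cells read them. H2-Aa and H2-Ab1 encode the alpha and beta chains of I-A, and H2-Eb1 the beta chain of I-E, whose alpha chain is not made in C57BL/6 mice. Cd74 is the invariant chain that guides the dimers to endosomes and blocks their groove on the way. H2-DM, made of H2-DMa with H2-DMb1 or H2-DMb2, exchanges the remnant of Cd74 for peptide, and H2-O, made of H2-Oa and H2-Ob, holds H2-DM back. Ciita is the coactivator that switches these genes on through a shared promoter module, and dendritic cells, B cells and macrophages are the marrow cells best known for them.

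The promoter module is shown first because it is what the genes share in sequence. Of the 10 members, 8 lie within 224335 bases of chromosome 17 (GRCm38, 34092340 to 34316674), where the class II region is. RefSeq windows of 300 bases (250 before to 50 after a gene's start, GRCm38.p6) were at hand for 7 members. The letters TGATTGG, which hold the inverted CCAAT of the Y box bound by NF-Y, stood on the gene's strand in 6 of the 7, with their first base 45 to 92 bases before the start. In each of the 6, the letters AAC of the X box, where RFX binds, lay 22 to 26 bases upstream of TGATTGG. Nothing nearer than 22 bases, or beyond a set upper limit, was searched. H2-Oa held a pair of such matches, at 22 and 26 bases, and which of them lies in its X box was not tested. The nearer is in capitals by rule, and the other genes had 1 each at 23 to 26 bases. The windows of H2-DMa held no TGATTGG on the gene's strand, which says only that these letters are not in that stretch. TGATTGG was found on the gene's strand in 4.01% of 32851 windows and on either strand in 7.82%, and AAC followed by TGATTGG at the members' distances on either strand in 0.542%. The latter were 178 of the 2568 windows with TGATTGG on either strand, and the distances were taken from the members themselves. The capitals mark AAC in the X region and TGATTGG in the Y region, 5′ to 3′ on the gene's strand.
H2-Aa X region, chr17:34287886-34287908, minus strand: gctggcAACtttgacgtcatcac
H2-Aa Y region, chr17:34287861-34287878, minus strand: ttttcTGATTGGttctgg
H2-Eb1 X region, chr17:34305772-34305794, plus strand: actagcAACtgatgatgctggac
H2-Eb1 Y region, chr17:34305801-34305818, plus strand: gatgcTGATTGGctccca
H2-DMb1 X region, chr17:34153093-34153115, plus strand: cctagtAACtgatgatgctaggc
H2-DMb1 Y region, chr17:34153123-34153140, plus strand: ctcagTGATTGGtctgac
H2-DMb2 X region, chr17:34145122-34145144, plus strand: cctattAACcgatgatgctaggc
H2-DMb2 Y region, chr17:34145152-34145169, plus strand: cttagTGATTGGactgac
H2-Oa X region, chr17:34092303-34092325, plus strand: gcaacaAACccattatctcagag
H2-Oa Y region, chr17:34092329-34092346, plus strand: tgctcTGATTGGctgctt
H2-Ob X region, chr17:34238814-34238836, plus strand: cctagcAACaaatgatgcaaagt
H2-Ob Y region, chr17:34238841-34238858, plus strand: gctctTGATTGGttaaca
The lines for H2-DMb1 and H2-DMb2 differ at few letters, and these neighbours can share reads. A match is a description of the sequence and not a measured site.

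Total counts per library ran from 11237384 to 17723245 with a median of 13489609. Levels are given as CPM, counts per 1000000 counts of a library whose size was scaled by TMM, where a count of 0 allows up to 0.186 to 0.281 CPM. Of 8 genes of the sort antigens, Flt3 and Il7r are given here. Flt3 was highest in MPP4 in Young (1059 and 1066 CPM). In Aged it overlapped between MPP4 (682 and 782 CPM) and CLPs (675 and 742 CPM). Il7r was highest in CLPs (157 and 159 CPM in Young, 201 and 190.0 CPM in Aged). By the age test described below, 5 of the 8 were called lower in aged MEPs (11.7% of all genes tested) and none higher (9.08%). The aged MEP libraries had Cd79a and Flt3 at 0 counts, whereas young MEPs had Cd79a at 53.5 and 57.5 CPM. In such bulk samples fewer cells of a type and less RNA per cell cannot be told apart.

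In young marrow the peptide-binding chains and Cd74 had one profile: highest in CLPs, next in HSCs, lower in MPP1 to MPP4 and MEPs, and lowest in GMPs. Cd74, on chromosome 18 (60803848 to 60812652, GRCm38), stood at 2089 and 2173 CPM in young CLPs, 339 and 358 CPM in HSCs, 120.2 and 128 CPM in MPP1, 90.3 and 90.6 CPM in MPP2, 133 and 146 CPM in MPP3, 104 and 114 CPM in MPP4, 109 and 121 CPM in MEPs and 10.6 and 10.2 CPM in GMPs. CLPs and HSCs were each clear of every other fraction, whereas MEPs overlapped their neighbours in the order, MPP1 and MPP4. H2-Aa had the same 2 fractions on top, with 346 and 364 CPM in CLPs and 143 and 154 CPM in HSCs, and 3.13 and 1.38 CPM in GMPs at the bottom. H2-Ab1 had the smallest ratio of its highest to its lowest group among the 4 genes, from 621 and 646 CPM in CLPs and 126 and 138 CPM in HSCs to 29.6 and 28.9 CPM in GMPs. H2-Eb1 ranged from 248 and 254 CPM in CLPs to 2.07 and 1.87 CPM in GMPs, with 63.3 and 66.4 CPM in HSCs. Markers of plasmacytoid dendritic cells summed to 7177 and 7280 CPM in young CLPs and 419 and 426 CPM in MPP4. B cell markers summed to 1967 and 2028 CPM against 48.1 and 57.0 CPM. Conventional dendritic cell markers had 909 and 911 CPM against 1095 and 1098 CPM, and macrophage and monocyte markers peaked in GMPs. The part of such cells in the CLP levels was not tested.

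Ciita, on chromosome 16 (10480059 to 10528418, GRCm38), had low counts beside the genes it controls. Its mean was 31.6 ± 3.77 CPM (SD, n = 2) in young CLPs, 10.3 ± 1.54 CPM in HSCs and 0.855 ± 1.21 CPM in GMPs, and the neighbours MPP3, MPP4, MPP2, MEPs and GMPs overlapped in turn along its order. Per kilobase of transcript, young HSCs had 1.72 CPM per kb of Ciita beside 247 of Cd74, 131 of H2-Aa, 109 of H2-Ab1 and 38.9 of H2-Eb1. Ciita overlaps Dexi on the other strand, and strand use in the counting was not stated, so their reads cannot be told apart.

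H2-DM and H2-O were spread differently. H2-DMa, the alpha chain of H2-DM, had 144 to 232 CPM in the libraries of 7 young fractions and 31.6 and 32.6 CPM in young MEPs. GMPs, at the bottom for the peptide-binding chains, held H2-DMa at 174 and 144 CPM and H2-DMb1 at 62.9 and 64.3 CPM, which overlapped HSCs at 58.9 and 67.5 CPM. H2-Ob, the beta chain of H2-O, was the one member whose young peak lay outside CLPs. Its young levels were 9.47 and 8.28 CPM in HSCs, 27.4 and 27.3 CPM in MPP1, 45.1 and 43.4 CPM in MPP2, 67.8 and 70.1 CPM in MPP3, 167 and 189.6 CPM in MPP4 and 117 and 127 CPM in CLPs. From HSCs to MPP4 no neighbours in this order overlapped, whereas GMPs (12.8 and 8.02 CPM), HSCs and MEPs (9.35 and 7.9 CPM) did. Its partner H2-Oa varied less among these fractions, with young means between 19.5 CPM in MPP2 and 39.5 CPM in CLPs outside GMPs (10.1 CPM) and MEPs (6.4 CPM).

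**Figure D1:**
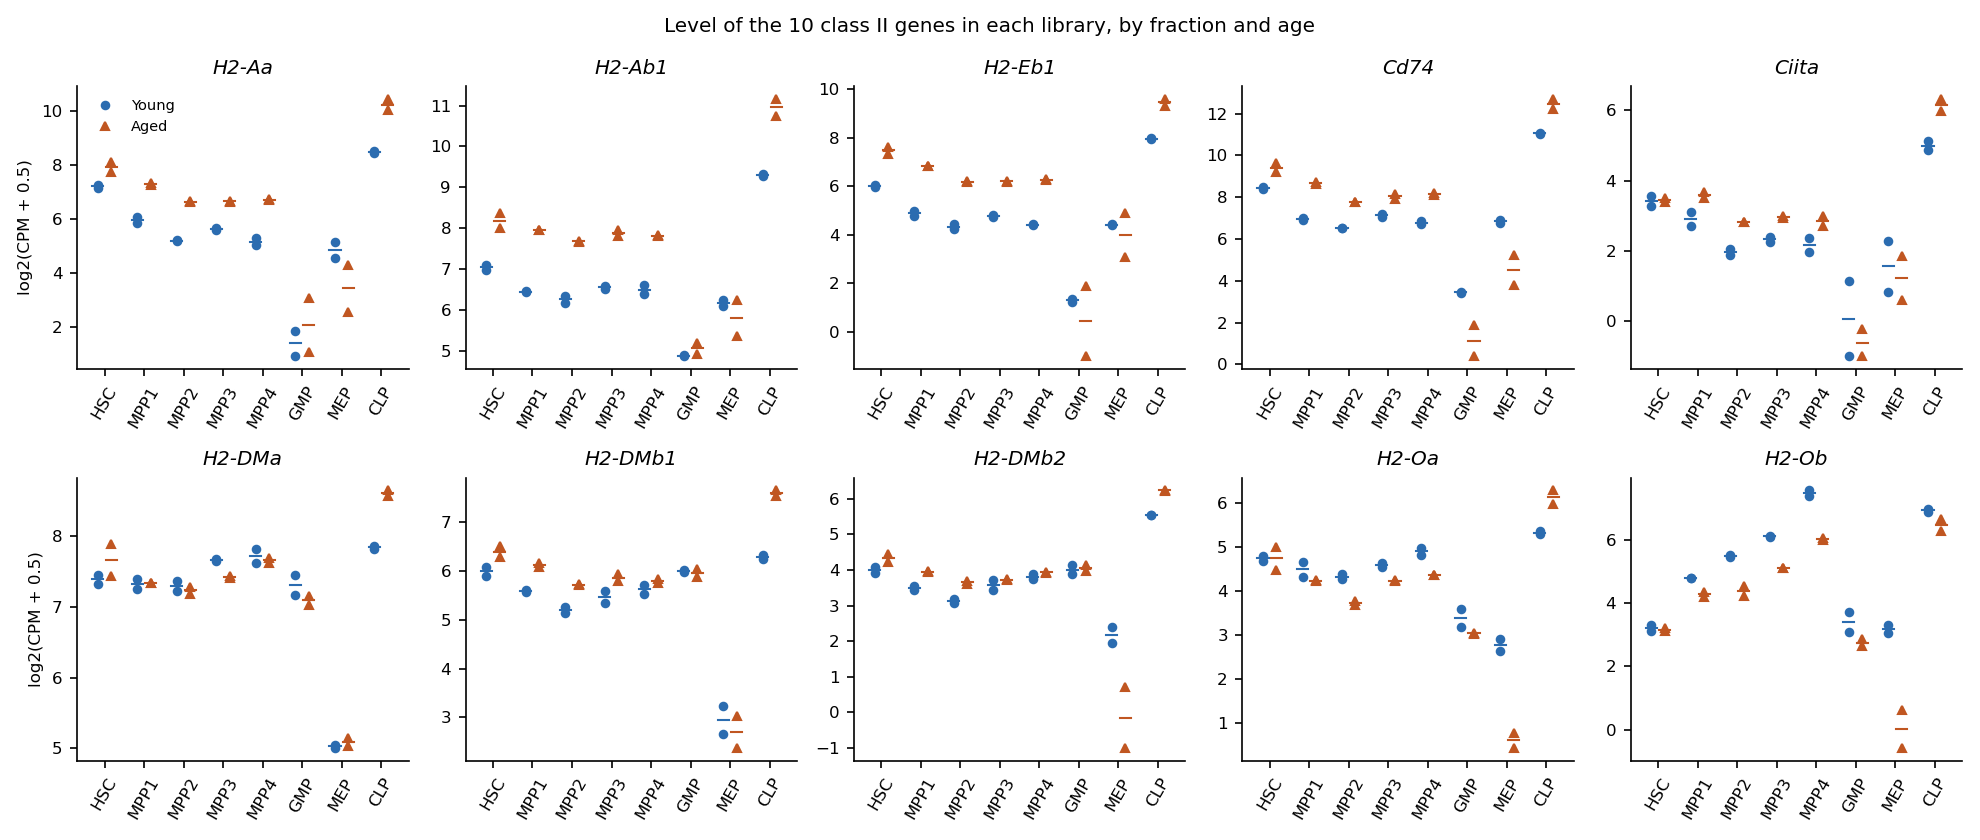
Level of each gene in each library as log2(CPM + 0.5), vertical axis, in the 8 fractions, horizontal axis; circles are Young and triangles Aged libraries, and short lines are the mean of the 2 libraries of a group. In HSCs and MPP1 to MPP4 the aged libraries of H2-Aa, H2-Ab1, H2-Eb1 and Cd74 lie above the young ones, and H2-Ob climbs from HSCs to MPP4.

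Aging was compared next, with edgeR's quasi-likelihood test on all 32 libraries, Benjamini-Hochberg adjustment over the 14154 genes and calls at an adjusted p under 0.01. In stem cells and multipotent progenitors the chains of I-A and I-E and Cd74 rose with age in most fractions (H2-Aa and Cd74 did not pass the test in HSCs and MPP3), Ciita and H2-DM did not pass the test in any of these 5 fractions, and H2-Ob fell in the CD48+ progenitors MPP2 to MPP4. The gain was between 1.67-fold and 3.9-fold for the 20 values of these 4 genes in the 5 fractions, of which 16 passed the test. By fraction, 3.74% to 10.3% of all genes tested were called higher. In each of the 20 the aged pair of libraries lay above the young pair. With 2 libraries a group such gaps can be frequent, and their share over all genes was not counted.

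H2-Ab1 had the steadiest rise. Young HSC libraries had 126 and 138 CPM and aged ones 258 and 329.6 CPM. MPP1 had 86.0 and 87.5 against 249 and 248 CPM, MPP2 71.8 and 81.5 against 203 and 208 CPM, MPP3 92.0 and 96.6 against 226 and 250.1 CPM, and MPP4 83.5 and 97.3 against 223 and 228 CPM. The groups were apart in all 5 fractions. Taking the fractions from HSCs to MPP4 in order, the log2 fold changes were 1.15, 1.52, 1.42, 1.34 and 1.32, each ± 0.18 (SE), with adjusted p = 1.38e-04, 7.54e-06, 2.10e-05, 1.55e-05 and 1.18e-05. These 5 calls held in each alternative fit and without any 1 library.

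H2-Eb1 had the highest fold of the 10 in each of the 5 fractions. HSCs went from 63.3 and 66.4 to 159.7 and 199 CPM, MPP1 from 27.0 and 31.4 to 115 and 113 CPM, MPP2 from 18.3 and 21.1 to 73.3 and 72.0 CPM, MPP3 from 26.5 and 27.5 to 72.1 and 74.3 CPM and MPP4 from 20.9 and 21.1 to 77.9 and 75.5 CPM. Aged libraries were above young ones throughout, and aged MPP1 to MPP4 each exceeded the level of young HSCs. The log2 fold changes were 1.47 ± 0.32, 1.96 ± 0.33, 1.88 ± 0.35, 1.44 ± 0.34 and 1.87 ± 0.34 in the same order, with adjusted p = 0.00432, 4.05e-04, 8.29e-04, 0.00352 and 3.31e-04. With DESeq2 the calls in HSCs (adjusted p = 0.0632, range over the alternatives 5.68e-04 to 0.0632) and MPP3 (0.0546, range 0.00121 to 0.0546) were lost. Without 1 library, the call was lost in MPP3 for each of the 4, in HSCs for either young library or aged replicate 2, in MPP2 for either young library and in MPP1 for young replicate 1, with log2 fold changes between 1.29 and 2.08.

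Cd74 rose in MPP1 from 120.2 and 128 to 399.7 and 419 CPM, a log2 fold change of 1.72 ± 0.26 (adjusted p = 1.35e-04). It also rose in MPP2, from 90.3 and 90.6 to 217 and 219 CPM (1.27 ± 0.26 on the log2 scale, adjusted p = 0.00235), and in MPP4, from 104 and 114 to 276 and 296 CPM (1.40 ± 0.26 on the log2 scale, adjusted p = 4.21e-04). In HSCs the libraries were 339 and 358 against 594.5 and 789 CPM, and in MPP3 133 and 146 against 244 and 285 CPM. Those differences, 0.99 ± 0.26 and 0.92 ± 0.26 on the log2 scale, did not pass (adjusted p = 0.0147 and 0.013) although the pairs were apart. When each fraction's 4 libraries were fitted alone, both were called (adjusted p = 0.00559 in HSCs, range over the alternatives 0.00559 to 0.0206, and 0.00338 in MPP3, range 0.00338 to 0.031). The call in MPP2 was lost without any 1 of its 4 libraries and that in MPP4 without young replicate 1.

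H2-Aa rose in MPP1 from 57.8 and 66.5 to 160.0 and 152 CPM (1.33 ± 0.31 on the log2 scale, adjusted p = 0.00642), in MPP2 from 35.7 and 36.8 to 101 and 99.0 CPM (1.46 ± 0.32, adjusted p = 0.00366) and in MPP4 from 32.4 and 38.7 to 105 and 106 CPM (1.57 ± 0.32, adjusted p = 9.99e-04). In MPP3 it had 48.0 and 50.3 against 102.5 and 99.6 CPM (adjusted p = 0.0206) and in HSCs 143 and 154 against 216.5 and 279 CPM (adjusted p = 0.132). The 2 lower calls were lost with DESeq2, at adjusted p = 0.0398 in MPP1 (range over the alternatives 1.01e-05 to 0.0398) and 0.0205 in MPP2 (range 1.95e-06 to 0.0205), and without any 1 of their 4 libraries. The call in MPP4 was lost without young replicate 1.

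Ciita did not pass edgeR's test for age in any of the 8 fractions. In MPP2 it had 3.64 and 3.17 CPM in Young and 6.51 and 6.64 CPM in Aged (0.95 ± 0.51 on the log2 scale, adjusted p = 0.234). In HSCs it had 9.23 and 11.4 against 10.1 and 10.9 CPM, which overlap. In MPP1 to MPP4 the aged pair lay above the young pair, with log2 fold changes of 0.68 to 0.95 whose standard errors, 0.46 to 0.51, compare with 0.18 for H2-Ab1. With the 4 MPP2 libraries fitted alone it was called (adjusted p = 0.0031, range over the alternatives 0.0031 to 0.299).

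H2-DMa was nearly level with age in MPP1 (152 and 169 against 161.4 and 161.2 CPM), MPP2 and MPP4, and its log2 fold changes in the 5 fractions ran from -0.24 to 0.29 with a standard error of 0.11. H2-DMb1 had log2 fold changes of 0.17 to 0.55 in the same fractions, and those in MPP1 (0.55 ± 0.14, adjusted p = 0.0116) and MPP2 (0.53 ± 0.14, adjusted p = 0.0151) lay just outside the threshold. With the counts of H2-DMb1 and H2-DMb2 added up, both passed (adjusted p = 0.00595 and 0.00664), as they did for H2-DMb1 with DESeq2 and with each fraction's 4 libraries fitted alone (ranges over the alternatives 2.59e-04 to 0.0167 and 4.69e-04 to 0.0273).

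H2-Ob went the other way. It fell from 45.1 and 43.4 to 22.7 and 18.3 CPM in MPP2, from 67.8 and 70.1 to 33.8 and 34 CPM in MPP3, and from 167 and 189.6 to 66.2 and 63.2 CPM in MPP4. The aged pairs were below the young pairs, with log2 fold changes of -1.11 ± 0.18, -1.02 ± 0.17 and -1.46 ± 0.17 (adjusted p = 2.32e-04, 1.71e-04 and 1.70e-06). In MPP1 it had 27.4 and 27.3 against 18 and 20.0 CPM (adjusted p = 0.0626) and in HSCs 9.47 and 8.28 against 8.13 and 8.84 CPM, which overlap. The call in MPP2 was lost without aged replicate 2 (adjusted p = 0.0116), and those in MPP3 and MPP4 held in each alternative and without any 1 library. H2-Oa had log2 fold changes of -0.60 ± 0.17 in MPP2 and -0.56 ± 0.16 in MPP4 (adjusted p = 0.0155 and 0.0119), and 6 of 7 alternatives other than leaving out a library called it in MPP4 (range 7.60e-04 to 0.0117).

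By fraction, 2 members were called higher in aged HSCs, where 3.74% of all genes tested were called higher, and none lower, where 1.66% were. MPP1 had 4 higher (4.71% of all genes) and none lower (2.09%), and MPP2 had 4 higher (4.49%) and 1 lower (3.31%). MPP3 had 2 higher (8.14%) and 1 lower (5.79%), and MPP4 had 4 higher (10.3%) and 1 lower (6.27%). The median log2 fold change of the 10 members was 0.38, 0.63, 0.74, 0.54 and 0.44 from HSCs to MPP4, beside medians of all genes between -0.04 and 0.02. Fitting the 4 libraries of a fraction alone called 9 members in MPP2 and 5 in MPP3 in place of 5 and 3. Without young replicate 1, 2 members were called in MPP1 and 3 in MPP4. Without 1 library of MPP2, 2 or 3 were called, and without young replicate 1, young replicate 2 or aged replicate 2, 1 was called in HSCs, as with DESeq2.

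Markers of mature presenting cells were read in the same libraries. From HSCs to MPP4, 3.74% to 10.3% of all genes tested were called higher with age by fraction. None of 9 B cell and 9 conventional dendritic cell markers tested was called higher there, and so few markers can give 0 at such shares. Among 10 plasmacytoid dendritic cell markers 1 was (Irf8 in MPP4, 0.51 ± 0.13 on the log2 scale, adjusted p = 0.00457). Among 11 macrophage and monocyte markers 1 was too (Cx3cr1 in MPP1, adjusted p = 0.00128, at 0 counts in both young libraries). Calls downwards, with fractions ordered from HSCs to MPP4, numbered 0, 1, 1, 4 and 3 for the plasmacytoid markers. They numbered 2, 1, 1, 1 and 1 for the conventional dendritic cell markers and 1, 1, 2, 6 and 4 for the macrophage and monocyte markers. The B cell markers had 1, in MPP3. Over all genes tested 1.66% to 6.27% were called lower by fraction. Of the 9 B cell markers in the table, 5 had 0 counts in both young HSC libraries and 5 in both aged ones, Ms4a1 among them at each age. The plasmacytoid dendritic cell marker Siglech had at most 1.19 CPM in any library of the 5 fractions, and the dendritic cell integrin Itgax at most 4.95 CPM. The summed level of the macrophage and monocyte markers was lower with age in each of the 5 fractions, from 271 and 292 to 91.2 and 96.9 CPM in MPP3 and from 51.5 and 62.4 to 33.9 and 46.0 CPM in HSCs. C1qa, a complement gene of macrophages, fell with age in each fraction between MPP2 and MPP4, the log2 fold changes being -1.36, -1.64 and -1.78 (adjusted p = 0.0063, 0.00115 and 0.00103). The part of any of these cells in the class II result was not tested.

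**Figure D2:**
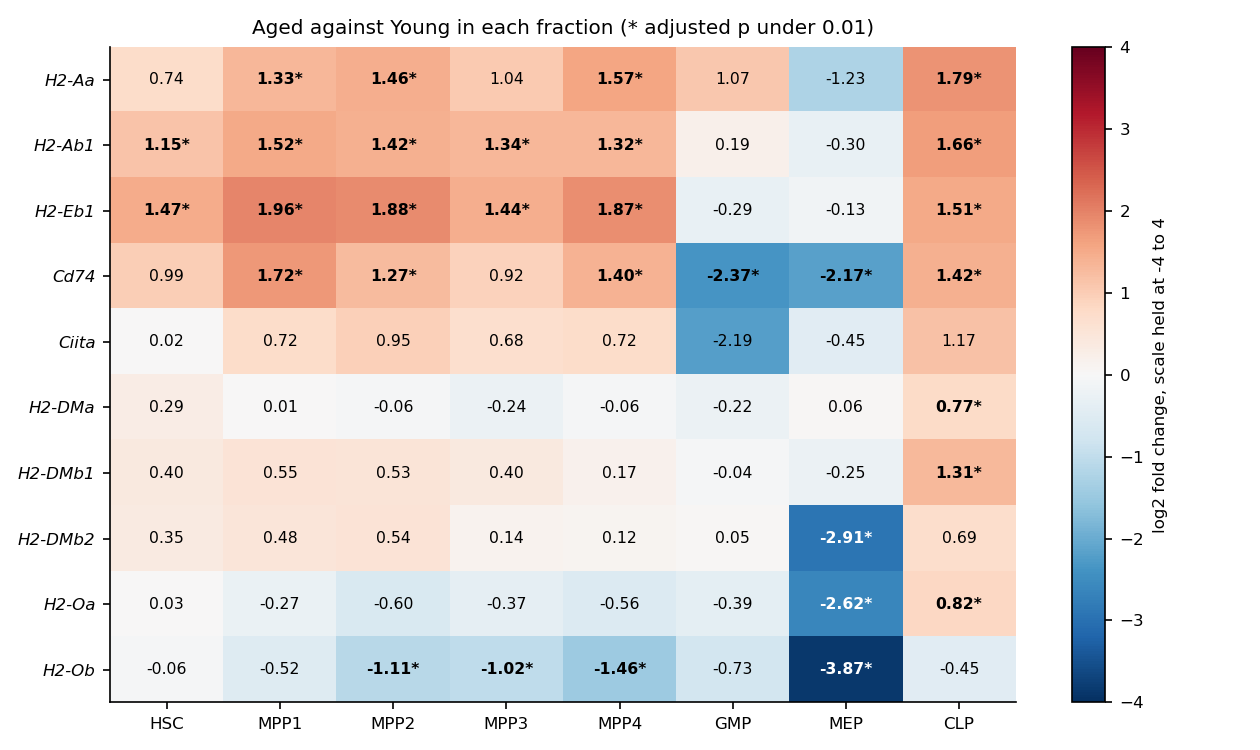
Log2 fold change of Aged against Young for the 10 genes, rows, in the 8 fractions, columns; red is higher and blue lower in Aged, and values in bold with an asterisk passed edgeR's test. The 4 upper rows are positive from HSCs to MPP4 and in CLPs, and H2-Ob is negative in the 8 fractions (-0.06 in HSCs, where the ages overlap), with calls in MPP2, MPP3, MPP4 and MEPs.

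In CLPs the change was broader. Of the 10 members 7 were called higher (5.71% of all genes tested) and none lower (4.73%), with a median log2 fold change of 1.24 beside 0.0 over all genes. H2-Aa rose from 346 and 364 to 1408 and 1048 CPM (1.79 ± 0.31 on the log2 scale, adjusted p = 2.78e-04) and H2-Ab1 from 621 and 646 to 2293 and 1721 CPM (1.66 ± 0.17, adjusted p = 8.38e-07). Cd74 went from 2089 and 2173 to 6689 and 4725 CPM, a log2 fold change of 1.42 ± 0.26 (adjusted p = 4.89e-04). H2-Eb1 rose from 248 and 254 to 780.4 and 643.5 CPM (1.51 ± 0.31 on the log2 scale, adjusted p = 0.00166). Ciita had 34.3 and 28.9 against 79.9 and 62.3 CPM, pairs that were apart but did not pass (adjusted p = 0.0567). By single fraction, H2-DM chains passed the test upwards in CLPs alone. H2-DMb1 rose from 75.1 and 80.3 to 201 and 186 CPM (1.31 ± 0.14, adjusted p = 8.29e-07) and H2-DMa from 226 and 232 to 402 and 379 CPM (0.77 ± 0.11, adjusted p = 5.01e-05). H2-Oa rose from 38.5 and 40.6 to 77.2 and 62.5 CPM (adjusted p = 5.93e-04), whereas H2-Ob had 117 and 127 against 77.4 and 102 CPM (adjusted p = 0.0619). The 4 genes H2-Aa, H2-Ab1, H2-Eb1 and Cd74 made up 0.316% and 0.327% of the counts of young CLP libraries and 1.03% and 0.783% of the aged ones.

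Markers of other cells moved in the same libraries. The 10 plasmacytoid dendritic cell markers summed to 7177 and 7280 CPM in young and 13439 and 10024 CPM in aged CLPs, and 8 of the 10 were called higher. Siglech, a lectin of these cells, had 1071 and 1056 CPM in Young and 3155 and 2089 CPM in Aged. The 9 B cell markers summed to 1967 and 2028 CPM in Young and 838.5 and 858.7 CPM in Aged, and 4 of the 9 were called lower. Of 9 conventional dendritic cell markers tested, 3 were called higher and none lower. Among 11 macrophage and monocyte markers 6 were called lower and 2 higher, while their sum went from 536 and 559 to 950 and 711 CPM. Over all genes tested 5.71% were called higher and 4.73% lower. Within the aged pair, replicate 1 was the higher for Cd74, H2-Aa, H2-Ab1 and Siglech, and replicate 2 for H2-Ob. A single pair of libraries cannot show whether genes vary together. The sort of CLPs was gated against B220, an antigen of B cells and plasmacytoid dendritic cells. The part of any of these cells in the class II result was not tested. Without young replicate 1 or aged replicate 1, 4 members were called in place of 7, and Cd74 and H2-Oa were lost in both cases (adjusted p = 0.0116 and 0.0145 for Cd74), as they were when the 4 CLP libraries were fitted alone (0.013 and 0.0233, ranges over the alternatives 1.81e-04 to 0.013 and 2.23e-05 to 0.0233). H2-Eb1 was lost without either young library or aged replicate 1, and with DESeq2 (adjusted p = 0.0391, range over the alternatives 7.29e-04 to 0.0391).

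**Figure D3:**
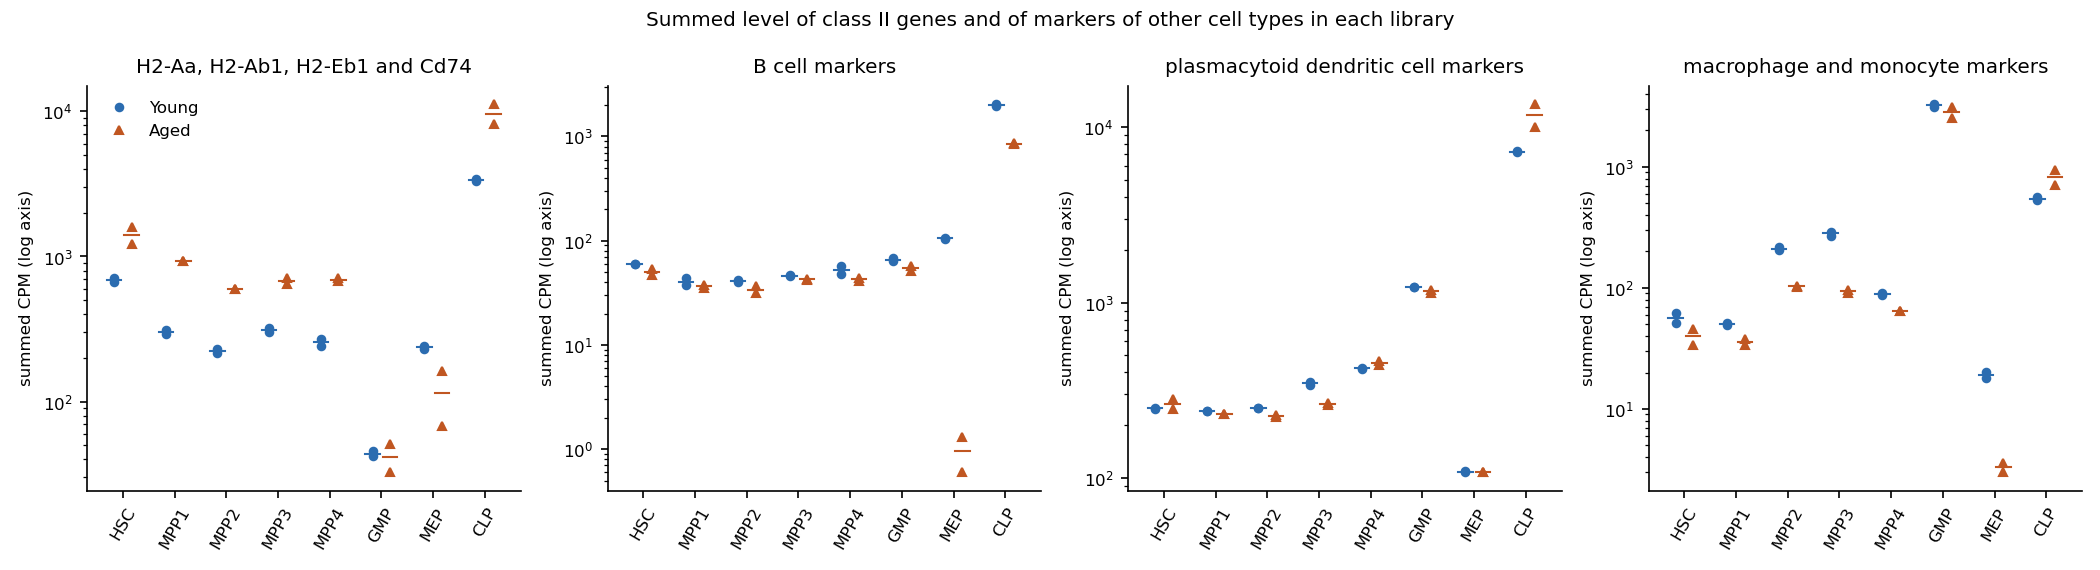
Summed CPM on a log axis in each library, by fraction, for 4 class II genes (left) and for B cell, plasmacytoid dendritic cell and macrophage or monocyte markers; circles are Young and triangles Aged libraries, and short lines are means. Both the class II genes and the plasmacytoid markers are highest in aged CLPs, while the B cell markers are lower there than in young CLPs and near 1 CPM in aged MEPs.

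In GMPs and MEPs no member was called higher with age. In aged GMPs 1 member was called lower (8.97% of all genes tested), beside 9.93% of all genes called higher. Cd74 fell from 10.6 and 10.2 to 0.805 and 3.21 CPM, a log2 fold change of -2.37 ± 0.45 (adjusted p = 4.14e-04), and this call was lost without aged replicate 1 (adjusted p = 0.0174) and with the 4 GMP libraries fitted alone (0.0212, range over the alternatives 5.38e-08 to 0.0212). H2-Ab1 had close levels, at 29.6 and 28.9 against 30.2 and 36.5 CPM. H2-Eb1 had 0 and 3.21 CPM in the 2 aged libraries and H2-Aa 1.61 and 7.84 CPM, so the aged pair disagreed by more than the ages did, and each direction turned without 1 aged library (0.70 for H2-Eb1 without aged replicate 1, -0.48 for H2-Aa without aged replicate 2). H2-Ob had 12.8 and 8.02 against 6.8 and 5.7 CPM and was called with DESeq2 (adjusted p = 0.00245, range 0.00245 to 0.114) but not with edgeR (0.0183), and DESeq2 called 2 members in all. The 11 macrophage and monocyte markers summed to 3284 and 3153 CPM in young and 2536 and 3116 CPM in aged GMPs, where C1qa, C1qb, C1qc and Mertk had 0 counts in both libraries. The 9 B cell markers summed to 63.3 and 68.5 CPM in young and 51.0 and 57.5 CPM in aged GMPs, and 8 of the 9 had 0 counts in both aged libraries against 3 in both young ones. Cd79a was called lower, with 1.71 and 1.52 CPM in young GMPs and 0 counts in aged ones. The part of these cells in the fall of Cd74 was not tested.

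In aged MEPs 4 members were called lower (11.7% of all genes tested) and none higher (9.08%). Cd74 fell from 109 and 121 to 13.3 and 37.6 CPM (-2.17 ± 0.28 on the log2 scale, adjusted p = 5.79e-06), H2-Oa from 5.76 and 7.03 to 1.22 and 0.861 CPM (-2.62 ± 0.27, adjusted p = 2.34e-07), H2-Ob from 9.35 and 7.9 to 1.03 and 0.172 CPM (-3.87 ± 0.36, adjusted p = 5.34e-08) and H2-DMb2 from 4.8 and 3.37 to 1.12 and 0 CPM (-2.91 ± 0.44, adjusted p = 2.85e-05). H2-DMa had close levels at 31.6 and 32.6 against 32.1 and 34.9 CPM. With the 4 MEP libraries fitted alone, H2-Oa kept its call (adjusted p = 0.0096, range over the alternatives 2.43e-12 to 0.0096) and the other 3 lost theirs (0.0108 to 0.0922). Without aged replicate 2, H2-Aa and H2-Ab1 were called as well, 6 in all. The aged libraries stood apart from each other: replicate 2 had more Cd74, H2-Aa (19.1 against 5.43 CPM), H2-Ab1 (75.6 against 41.0 CPM) and H2-Eb1 (29.7 against 8.06 CPM). Markers of other cells were read in MEPs too. The 9 B cell markers summed to 106.5 and 104 CPM in young MEPs and 1.31 and 0.602 CPM in aged MEPs, where 7 of the 9 had 0 counts in both libraries. Of 9 conventional dendritic cell markers tested, 3 were called lower and none higher, with a median log2 fold change of -3.6. The 11 macrophage and monocyte markers summed to 20.3 and 17.9 CPM in young and 3.0 and 3.61 CPM in aged MEPs. The sum of the 10 plasmacytoid markers lay between 108 and 109.5 CPM in the 4 libraries, but its members moved apart: Irf8, Runx2 and Ly6d were called lower and Bst2 higher, and the median log2 fold change of the 10 was -2.20. Irf8 fell from 19.6 and 27.3 to 1.87 and 2.5 CPM, while Bst2 rose from 41.4 and 36.2 to 61.8 and 67.1 CPM. The part of these cells in the fall was not tested.

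Over the 8 fractions with equal weight, 5 members had a higher mean (16.2% of all genes tested) and 2 a lower one (13.0%). H2-Eb1 rose by 1.21 ± 0.16 on the log2 scale, H2-Ab1 by 1.04 ± 0.06, H2-Aa by 0.97 ± 0.13, Cd74 by 0.40 ± 0.11 and H2-DMb1 by 0.38 ± 0.05, whereas H2-Ob had -1.15 ± 0.08 and H2-Oa -0.49 ± 0.06 (adjusted p from 6.38e-11 to 0.00528 over the 7). The mean over HSC to MPP4 alone, added after the data were seen, called the same 7 genes, with 19.4% of all genes called higher and 17.5% lower. There Cd74 rose by 1.26 ± 0.12, H2-Ob had -0.84 ± 0.08 and Ciita had 0.62 ± 0.22 (adjusted p = 0.0226). Without aged GMP replicate 2 the mean of H2-Eb1 over 8 fractions was 0.28 and no longer called, and that of Cd74 was lost too (adjusted p = 0.244), as it was without either young GMP library or aged HSC replicate 2.

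The age difference was unequal among the 8 fractions for 8 of the 10 members, by a test of the difference itself with 34.9% of all genes called. Cd74 had the smallest adjusted p (2.31e-07), followed by H2-Oa (1.78e-06). H2-Eb1 (adjusted p = 0.014) and Ciita (0.212) did not pass.

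The steps between fractions were then read at each age. From MPP4 to CLPs the chains, Cd74 and Ciita rose at both ages: Cd74 by 4.29 ± 0.29 in Young and 4.32 ± 0.29 in Aged on the log2 scale (adjusted p = 6.76e-11 and 5.91e-11) and Ciita by 2.95 ± 0.48 and 3.40 ± 0.47 (adjusted p = 2.52e-05 and 3.03e-06). There were 7 members called higher in Young (21.3% of all genes) and 1 lower (20.5%), and 9 higher in Aged (18.9%) and none lower (21.6%). The young member that fell was H2-Ob, with -0.54 ± 0.16 on the log2 scale (adjusted p = 0.0077), a call lost without any 1 of its 4 libraries. In Aged it had 0.47 ± 0.17 (adjusted p = 0.0226). H2-DMa had 0.12 ± 0.11 in Young and rose by 0.95 ± 0.11 in Aged (adjusted p = 0.382 and 3.37e-07). The differences between the ages in these steps were not tested. Of 10 plasmacytoid dendritic cell markers, 10 were called higher at each age, and of 9 B cell markers 9 in Young and 8 in Aged. Of 9 conventional dendritic cell markers 5 were higher at each age, with 2 lower in Young. Of 11 macrophage and monocyte markers 8 were higher in Young, and 4 higher and 3 lower in Aged. Their part in the class II rise was not tested.

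From MPP3 to GMPs the peptide-binding chains and Cd74 fell at both ages, Cd74 with log2 fold changes of -3.75 ± 0.31 in Young and -7.04 ± 0.39 in Aged (adjusted p = 6.99e-10 and 2.05e-12). In Young 8 members were called lower (30.0% of all genes) and 1 higher (28.0%), the latter H2-DMb1, which rose by 0.54 ± 0.14 (adjusted p = 0.00195). That call was lost with offsets for GC content and length (0.166, range over the alternatives 8.46e-04 to 0.166), with the 4 libraries fitted alone, and without young MPP3 replicate 1 or either young GMP library. Without young GMP replicate 2, 6 members were called in place of 9. In Aged 7 were called lower (22.2%) and none higher (21.4%), and H2-DMa, H2-DMb1 and H2-DMb2 were the 3 that did not pass. H2-DMa had nearly the same log2 fold change at both ages, -0.35 in Young (adjusted p = 0.00981) and -0.33 in Aged (adjusted p = 0.0187). The young call was lost with the 4 libraries fitted alone (0.0142, range over the alternatives 1.41e-05 to 0.0142), whereas the aged value was called in 4 of 7 alternatives (range 1.53e-05 to 0.0157). The young call of Ciita (-2.41, adjusted p = 0.00241) was lost with offsets for GC content and length (0.0275) and with the 4 libraries fitted alone (0.112, the highest of the alternatives). From MPP2 to MEPs in Young 5 members fell (36.7% of all genes) and none rose (27.3%): H2-DMa, H2-DMb1, H2-DMb2, H2-Oa and H2-Ob. Cd74 (0.34 ± 0.26 on the log2 scale), Ciita and the chains did not pass. In Aged 9 of the 10 fell (34.4%) and none rose (26.1%), with Ciita as the exception (-1.65 ± 0.56, adjusted p = 0.0125). Ciita was called there too with DESeq2 (adjusted p = 0.00584, range over the alternatives 0.00507 to 0.0459), with the 4 libraries fitted alone (0.00507) and without aged MEP replicate 2 (0.00596).

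Within HSCs and MPPs the young step from HSCs to MPP1 had 2 members lower (5.67% of all genes) and 1 higher (9.1%). Cd74 and H2-Aa fell, with log2 fold changes of -1.49 ± 0.26 and -1.25 ± 0.31 (adjusted p = 2.21e-04 and 0.0053), while H2-Ob rose by 1.63 ± 0.20 (adjusted p = 1.93e-06). The call of H2-Aa was lost with DESeq2 (adjusted p = 0.0355, range over the alternatives 2.77e-05 to 0.0355), with offsets for GC content and length (0.0106) and without any 1 of its 4 libraries (0.0177 to 0.0702). In Aged H2-Ob was the 1 call, rising by 1.16 ± 0.20 (12.5% of all genes higher, 10.5% lower), and Cd74 had -0.76 ± 0.26 (adjusted p = 0.0256). From MPP1 to MPP4 H2-Ob was again the 1 member called, rising by 2.71 ± 0.18 in Young (6.63% of all genes higher, 6.27% lower) and by 1.76 ± 0.18 in Aged (10.5% higher, 9.02% lower). From MPP1 to MPP3 it rose by 1.34 ± 0.17 in Young (3.75% higher, 1.74% lower) and 0.83 ± 0.18 in Aged (4.52% higher, 3.72% lower), the aged call being lost without any 1 of its 4 libraries. From MPP1 to MPP2 it rose by 0.70 ± 0.17 in Young (adjusted p = 0.00991, 4.8% of all genes higher, 2.02% lower), a call that was lost without any 1 of its 4 libraries and in 5 of 7 other alternatives (adjusted p up to 0.0127). In Aged that step had 0 calls with edgeR (3.14% of all genes higher, 2.4% lower), 4 members at an unadjusted p under 0.05, and 1 call with DESeq2. With the 4 libraries of a step fitted alone, 6 and 7 members were called in these 2 steps, 5 in the young step from HSCs to MPP1, and 4 and 8 in the aged steps to MPP3 and MPP4.

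**Figure D4:**
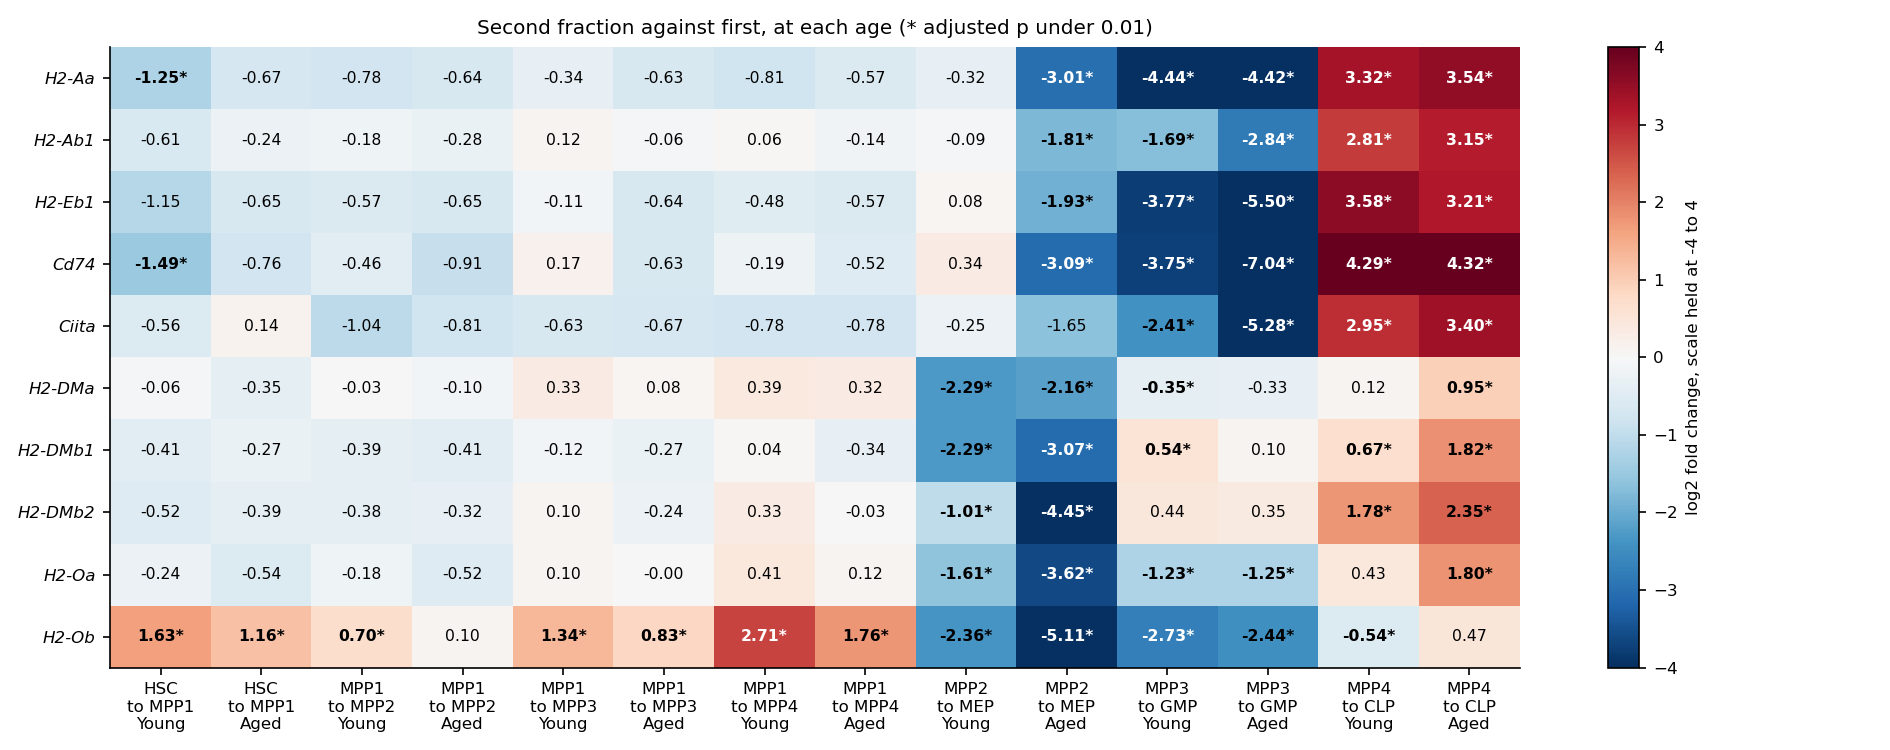
Log2 fold change of the second fraction against the first for the 10 genes, rows, in 7 steps at each age, columns; red is higher in the second fraction, and values in bold with an asterisk passed edgeR's test. The chains, Cd74 and Ciita are blue towards GMPs and red towards CLPs at both ages, and apart from Cd74 and H2-Aa in the young step from HSCs to MPP1, the latter a call lost with DESeq2 and without any 1 library, H2-Ob is the row with calls among HSCs and MPPs.

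Partner chains were set against each other within each library, as ratios of CPM per kb of transcript and with no test. H2-Ob to H2-Oa was 0.153 and 0.125 in young HSCs, 0.571 and 0.449 in young MPP1, 0.982 and 0.872 in young MPP2, 1.13 and 1.25 in young MPP3 and 2.44 and 2.49 in young MPP4. In aged MPP4 it was 1.36 and 1.28, and in aged CLPs 0.408 and 0.662 against 1.24 and 1.28 in young CLPs. Aged libraries were below young ones in MPP1 to MPP4, MEPs and CLPs, and overlapped them in HSCs and GMPs. H2-Aa to H2-Ab1 was 1.21 and 1.2 in young HSCs and 0.902 and 0.911 in aged HSCs, and 0.0514 to 0.231 in the 4 GMP libraries, which overlapped aged MEPs (0.142 and 0.272). H2-DMb1 and H2-DMb2 together to H2-DMa was 0.441 and 0.416 in young MPP1 and 0.628 and 0.605 in aged MPP1, and aged exceeded young in MPP1, MPP2, MPP3, MPP4, GMPs and CLPs. In MEPs aged libraries (0.213 and 0.259) were below young ones (0.509 and 0.331), and in HSCs the ages overlapped.

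**Figure D5:**
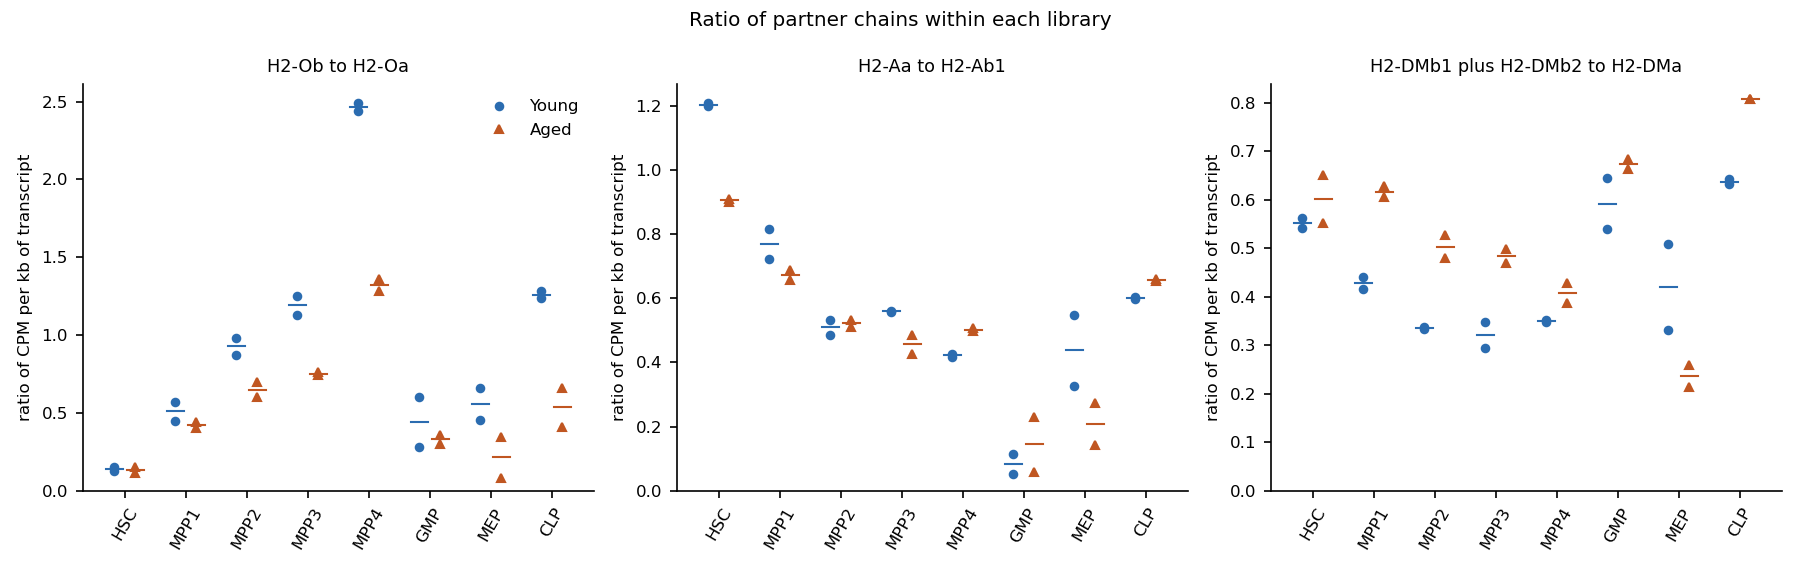
Ratio of partner chains within each library, as CPM per kb of transcript over CPM per kb, by fraction; circles are Young and triangles Aged libraries, and short lines are means. H2-Ob to H2-Oa climbs from HSCs to MPP4 and reaches 2.44 and 2.49 in young MPP4 against 1.36 and 1.28 in aged MPP4.

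The regulators around these genes were read in the same way. Of 7 genes for promoter factors (Rfx5, Rfxap, Rfxank, Nfya, Nfyb, Nfyc and Creb1) none was called by edgeR or DESeq2 for age in HSCs or MPP1 to MPP4, and 0 to 3 of them had an unadjusted p under 0.05 in a fraction. Their median log2 fold change lay between -0.14 and -0.03 there. In the mean over HSC to MPP4, 1 of the 7 was called lower by edgeR (17.5% of all genes) and 2 were called by DESeq2. In MEPs 1 was called higher (9.08%) and 2 lower (11.7%) by edgeR. Of 8 genes on the path from interferon gamma to Ciita, 4 fell in MPP4 (6.27% of all genes) and none rose (10.3%). HSCs, MPP1, MPP2 and MPP3 had 1 called lower each (1.66% to 5.79% of all genes). In the mean over HSC to MPP4, 6 were called lower (17.5%) and none higher (19.4%). The 4 in MPP4 were Socs1 (-1.59 ± 0.23 on the log2 scale), an inhibitor of the pathway, Irf1 (-0.76 ± 0.10), Jak2 (-0.45 ± 0.12) and Irf2 (-0.41 ± 0.08). In CLPs Irf1 rose by 0.96 ± 0.10 (adjusted p = 9.38e-07), and it also rose in GMPs and MEPs.

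Endosomal processing genes split. Of the 9 tested, 2 were called higher with age in HSCs (3.74% of all genes), 1 in MPP1 (4.71%) and 1 in MPP4 (10.3%). Called lower were 1 in MPP3 (5.79%), 2 in MPP4 (6.27%), 1 in GMPs (8.97%) and 4 in MEPs (11.7%). Ifi30, the thiol reductase that opens disulfides of antigens, rose in MPP1 from 3.04 and 3.89 to 7.79 and 9.95 CPM (1.36 ± 0.25 on the log2 scale, adjusted p = 9.25e-04) and in MPP4 from 4.77 and 2.51 to 9.05 and 9.83 CPM (1.35 ± 0.25, adjusted p = 3.73e-04). Ctsl, a cathepsin, fell in MPP4 and MPP3, with log2 fold changes of -0.64 ± 0.16 and -0.61 ± 0.15 (adjusted p = 0.00444 and 0.00525). In CLPs 3 of the 9 rose (5.71% of all genes) and 1 fell (4.73%). Ctsl had 334 and 321 CPM in young and 1278 and 763 CPM in aged CLPs, and Ctss, the cathepsin that trims Cd74 in presenting cells, 285 and 287 against 685 and 469 CPM. Cd63, a tetraspanin of endosomes, fell there from 58.2 and 60.7 to 6.02 and 5.65 CPM.

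Costimulation genes gave few calls. Of the 4 tested, none was called in a single fraction from HSC to MPP4 with edgeR. Among all genes 3.74% to 10.3% were called higher there and 1.66% to 6.27% lower. In each of these fractions 2 of the 4 had an unadjusted p under 0.05, and DESeq2 called 0 to 2. In the mean over HSC to MPP4, Cd83 and Cd86 fell (17.5% of all genes lower), with log2 fold changes of -2.00 ± 0.28 and -1.19 ± 0.16 (adjusted p = 4.76e-06 and 3.65e-06). Cd86 had 14.7 and 15.9 CPM in young and 6.1 and 4.76 CPM in aged HSCs, so the ages were apart in the opposite sense to H2-Ab1.

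As a description, the correlation of log2 levels among H2-Aa, H2-Ab1, H2-Eb1 and Cd74 was 0.93 to 0.98 over the 16 group means, which share libraries and depth and rest in part on the extremes, CLPs and GMPs. Ciita had 0.95 to 0.98 with these 4, H2-DMa 0.43 to 0.56 and H2-Ob 0.42 to 0.53, while H2-DMa had 0.95 with H2-DMb1 and H2-Oa 0.82 with H2-Ob. Among the genes outside the set whose group means were most like the mean of the 4 were Kcnab3 (r = 0.939), Abi3 (0.929), Rnd3 (0.922) and Plekha7 (0.919). Kcnab3 was near the floor, with means of 0.324 CPM in young MPP4 and 1.89 CPM in aged CLPs. H2-Eb2, a relative of H2-Eb1, had at most 4.16 CPM in any library, and H2-Ea-ps, the disrupted I-E alpha gene, had 0 counts in each of the 32, which allows up to 0.186 to 0.281 CPM.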

How the data were processed

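The samples were 32 RNA libraries of 8 marrow fractions at 2 ages, grouped by the GEO titles. Per the labels and the study's methods, total RNA was amplified with a SMARTer low-input kit and sequenced as single reads, aligned with TopHat2 2.0.13 and Bowtie2 2.1.0 to mm10, and counted with StringTie. Strand use was not stated, and there were no molecular identifiers, so intervals and floors cover counting error alone. The deposited table used here holds the authors' raw counts per gene. The authors' 8 tables of DESeq2 comparisons and 1 normalized table were not used.

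Positions and transcript lengths came from GENCODE M21 (23349 symbols matched directly, 650 through an older symbol). H2-DMb1 and H2-DMb2 counts may share reads. H2-Oa, H2-DMa, H2-Eb1, Cd74 and Ciita overlap other genes. The table named 27 genes by dates (0.188% of counts), among them possibly Marchf1, which was not analysed. Ighd and Trac were not analysed either.

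Counts were tested with edgeR 4.0.16 (R 4.3.3, TMM factors 0.807 to 1.11, filterByExpr, quasi-likelihood F-test, two-sided, 1 mean per group over all libraries, 16 residual degrees of freedom, Benjamini-Hochberg adjustment over all genes in each contrast, call at 0.01). The code was tested on simulated data. Alternatives were DESeq2 1.42.0, its size factors, no filter, a replicate block, offsets for GC content and length, fits of the 4 libraries compared, summed H2-DMb counts and leaving out each library. Likeness used log2(CPM + 0.5) over 16 group means.

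Besides the 10 members, the genes named were those of the pathway lists called in a described contrast, at most 4 of the largest folds per list and contrast, the 5 most alike, and markers. A few genes that this rule named are not reported here. The members and lists were chosen with earlier results of these data known. One passage of the study has the marrow of each age combined before duplicate sorts. Others speak of biological duplicates for its chromatin data and call its HSC expression samples biologically independent. Which holds is not settled, so p-values may measure only the spread between these libraries, which may be technical. The duplicates of each group differed by more than counting noise (chi-square per gene 4.59 to 19.0).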

Additional observations from a re-analysis of the deposited data

Results flagged for a closer look

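With 2 libraries a group, no test for a stray library was made. The age effect was unequal among the 8 fractions, by edgeR's quasi-likelihood test of the interaction, for 8 members. The adjusted p was 2.31e-07 for Cd74, whose 6 changes with a call were higher in MPP1, MPP2, MPP4 and CLPs and lower in GMPs and MEPs. It was 1.78e-06 for H2-Oa, higher in aged CLPs (log2 fold change 0.82) and lower in aged MEPs (-2.62). It was 1.11e-05 for H2-Ab1, with log2 fold changes of 1.15 to 1.66 in HSCs, MPPs and CLPs and of 0.19 and -0.30 in GMPs and MEPs. It was 1.22e-05 for H2-Ob, from -3.87 in MEPs to -0.06 in HSCs. For the H2-DM chains it was 1.40e-04 (H2-DMb1), 2.89e-04 (H2-DMb2) and 3.14e-04 (H2-DMa), and for H2-Aa 0.00103. In CLPs and MEPs the summed markers of plasmacytoid dendritic cells, B cells, or macrophages and monocytes also moved with age, and their part in the differences was not tested.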

How the results depend on the processing

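Counts of members called were recomputed 319 times for 24 comparisons, and 269 of the values were within 1.5 times of the reported one. Of the 80 age fold changes, none that was called changed sign in the alternatives run, and 16 that were not called did so at least once. H2-Ab1 kept its call in HSCs, MPP1 to MPP4 and CLPs in each alternative. The count of members called for age became 2 in GMPs and 1 in HSCs with DESeq2, and 0 in GMPs, 1 in MEPs, 9 in MPP2 and 5 in MPP3 with the 4 libraries compared fitted alone. For steps, DESeq2 gave 3 (aged HSCs to MPP1), 1 (aged MPP1 to MPP2), 2 (aged MPP1 to MPP4), 5 (young HSCs to MPP1) and 2 (young MPP1 to MPP4). The 4-library fits gave 7, 4 and 8 for aged MPP1 to MPP2, MPP3 and MPP4, 5 for young HSCs to MPP1, and 6 and 2 for young MPP1 to MPP2 and MPP4. Offsets for GC content and gene length gave 1 (aged MPP1 to MPP2), 2 (aged MPP1 to MPP4), 0 (young MPP1 to MPP2) and 2 (young MPP1 to MPP4). DESeq2 size factors and no filter on low counts each gave 2 for aged HSCs to MPP1 and 0 for young MPP1 to MPP2. Leaving out 1 library gave 1 to 3 members in HSCs, 2 to 3 in MPP1, 2 to 3 in MPP2, 2 in MPP3, 3 to 5 in MPP4, 0 to 2 in GMPs, 4 to 6 in MEPs, 4 to 7 in CLPs, 5 to 8 for the mean over fractions, 1 to 3 for aged HSCs to MPP1, and 0 for aged MPP1 to MPP3 and young MPP1 to MPP2. A lone library left in a group was assumed to vary like the other groups. The causes were not tested.

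Same-numbered libraries of the 2 ages did not pair. The correlation of their deviations ran from -0.429 in MPP1 to 0.252 in MPP4 over 8043 genes. A replicate block changed the count of 1 comparison by over 1.5 times, young MPP1 to MPP2, to 0, and called Cd74 for age in MPP3 (adjusted p = 0.00996). With crossed numbers, an alternative chosen after seeing the data, the block gave 0 there and 2 for aged HSCs to MPP1. With 2 libraries a group and few counts of Ciita, H2-DMb2 and the H2-O genes in GMPs and MEPs, small differences were not detectable there.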
